A study of Rattus norvegicus with 4 samples.

Results

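The core loop of the circadian clock was examined in rat liver after inhalation of sevoflurane or desflurane, both halogenated ethers with which general anesthesia is held. The genes were chosen by their known roles in the loop, with earlier results of these data known: *Arntl* (also called *Bmal1*), *Clock* and *Npas2* of the activating limb, and *Per1*, *Per2*, *Per3*, *Cry1*, *Cry2*, *Nr1d1* and *Nr1d2* of the repressing limb. These 10 genes were all found among the 16985 gene symbols listed in all 4 libraries, each with a single row per library. Each agent had a 0 h and a 6 h group, and each of these 4 groups held 1 library from a wild type rat. A 0 h rat was decapitated once it lost consciousness and served as the control of its agent, and a 6 h rat stayed under the agent for 6 h. The inhaled concentration was 4.5% for sevoflurane and 6% for desflurane, which is not a common dose, and every animal, the controls included, inhaled an agent. According to the series description, controls and anesthetized rats were harvested 6 h apart, so hours under anesthesia and time of day changed together and cannot be told apart. Clock hours, strain and age are given in none of the sources used here. Since each group is a single library, the values carry no replicate error, and every difference is one between single animals.

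The mammalian clock is a feedback loop of transcription that runs in nearly every cell, the hepatocyte included. BMAL1 pairs with CLOCK, or with its relative NPAS2, and the pair binds E-box sequences to activate the *Per*, *Cry* and *Nr1d* genes. PER and CRY proteins gather in a complex that holds back BMAL1 and CLOCK, while the nuclear receptors REV-ERB alpha and beta, products of *Nr1d1* and *Nr1d2*, repress *Arntl* through ROR response elements (RORE). In liver the messages of the activating limb and of the *Nr1d* genes peak at opposed phases of the day, and the loop drives rhythms of metabolic genes through its output factors.

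The sequences through which this loop is known to act were looked for in the annotated promoters, and the windows with a RORE or an E-box are shown. Windows of 300 bases, from 250 before to 50 after an annotated start, were taken from RefSeq on the build GRCr8 and were matched by symbol for 9 of the 10 genes. The RNA values below lie on another build, rn6, and no coordinate was carried from one to the other. *Clock* and *Nr1d1* have 2 windows each, which gave 11 windows. Both strands were searched for CACGTG (E-box), CACGTT (a variant E-box), AGGTCA (the half-site of nuclear receptors), the RORE, TTATGTAA and TTACGTAA (D-boxes, bound by DBP, TEF and NFIL3) and TGACGTCA (the cyclic AMP response element). The RORE contains AGGTCA, so its matches count under both. Capitals mark matches in the sequences below, which are written 5′ to 3′ on the strand of the gene.
Arntl, chr1:176766078-176766377, plus strand: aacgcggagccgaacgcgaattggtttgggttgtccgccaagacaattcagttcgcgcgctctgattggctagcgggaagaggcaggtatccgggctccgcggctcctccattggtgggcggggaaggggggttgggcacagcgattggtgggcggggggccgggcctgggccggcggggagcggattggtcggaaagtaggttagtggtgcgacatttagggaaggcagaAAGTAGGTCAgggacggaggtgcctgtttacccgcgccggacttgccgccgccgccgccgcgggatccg
Per2, chr9:99496944-99497243, minus strand: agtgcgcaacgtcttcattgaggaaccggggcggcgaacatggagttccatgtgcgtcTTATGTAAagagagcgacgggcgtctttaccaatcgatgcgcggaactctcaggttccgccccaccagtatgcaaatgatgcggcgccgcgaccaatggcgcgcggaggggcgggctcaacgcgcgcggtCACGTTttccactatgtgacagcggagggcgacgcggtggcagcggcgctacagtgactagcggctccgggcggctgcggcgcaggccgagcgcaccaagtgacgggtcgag
Cry2, chr3:98860388-98860687, minus strand: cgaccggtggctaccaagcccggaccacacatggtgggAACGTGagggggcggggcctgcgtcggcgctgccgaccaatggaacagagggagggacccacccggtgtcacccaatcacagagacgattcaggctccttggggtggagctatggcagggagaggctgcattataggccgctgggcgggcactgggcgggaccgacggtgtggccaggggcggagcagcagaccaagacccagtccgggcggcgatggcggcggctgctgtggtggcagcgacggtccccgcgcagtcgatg
Nr1d1, chr10:84231763-84232062, minus strand: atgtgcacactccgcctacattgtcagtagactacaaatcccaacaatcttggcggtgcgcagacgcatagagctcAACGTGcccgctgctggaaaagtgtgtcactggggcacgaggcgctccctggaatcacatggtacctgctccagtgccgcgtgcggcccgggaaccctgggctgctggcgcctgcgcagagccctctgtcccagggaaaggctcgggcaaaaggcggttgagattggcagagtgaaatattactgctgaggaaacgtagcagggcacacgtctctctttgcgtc
Nr1d1, downstream start, chr10:84229405-84229704, minus strand: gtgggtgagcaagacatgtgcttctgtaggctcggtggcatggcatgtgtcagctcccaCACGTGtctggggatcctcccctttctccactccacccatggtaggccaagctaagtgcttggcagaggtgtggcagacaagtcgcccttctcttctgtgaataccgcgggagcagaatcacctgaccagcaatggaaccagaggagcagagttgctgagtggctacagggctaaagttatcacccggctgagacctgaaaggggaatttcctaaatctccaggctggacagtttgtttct

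The window of *Arntl* held a RORE from -19 to -10, counted so that 0 is the first transcribed base. This element was present in 82 of 33469 rat windows (0.245%), and among the members only in *Arntl*. *Per2* carried CACGTT from -62 to -57 and the D-box TTATGTAA from -192 to -185, a motif in 0.893% of all windows. *Cry2* carried CACGTT on the opposite strand from -212 to -207. *Nr1d1* carried CACGTT on the opposite strand from -174 to -169 at its upstream start and CACGTG from -191 to -186 at its downstream start. In all, 3 of 9 genes held an E-box of either spelling in 4 of the 11 windows, and 10.9% of all windows held one. Besides *Arntl*, AGGTCA stood in the window of *Nr1d2*, from -187 to -182, and in 16.2% of all windows. None of the motifs searched was in the windows of *Clock*, *Npas2*, *Per1* or *Per3*. At 6 h the *Per1* locus assembled from the reads began 5278 (sevoflurane) and 5247 bp (desflurane) before the annotated 5′ end on rn6. Whether the *Per1* window lies at the start used in these livers was not tested. The matches above describe letters in a short window and were not tested for binding.

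The abundance of each gene was taken as TPM, a level scaled for gene length and library size, so levels may be compared between genes. The sevoflurane 0 h library was the shallowest, with 3.50 Gb of aligned bases against 5.29 to 5.57 Gb in the others. A TPM of 2 there corresponded to 4.72 reads over each base and to between 6.84 and 7.28 in the others. No read counts were given, so no counting interval could be computed. All 10 hepatocyte markers exceeded a TPM of 2 in every liver, and their summed TPM lay between 98971 and 110498. Markers of red blood cells summed to 632 and 991 TPM at 0 h and to 1671 and 1864 at 6 h, in the order sevoflurane, desflurane. Of the 7 such markers listed, 4 exceeded a TPM of 2 at sevoflurane 0 h and 5 did in each of the other livers. Stellate cell markers were 1.42 and 1.43 times higher at 6 h, while lymphocyte markers summed to 5.70 TPM or less and cholangiocyte markers to 8.13 TPM or less in every liver. Whether the share of blood in the tissue has a part in the differences below was not tested. In bulk tissue, fewer cells of a type and less RNA per cell cannot be told apart.

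In the activating limb, all 3 genes were lower in both 6 h livers than in both 0 h livers. *Arntl* (rn6 chr1:178039063-178137471, plus strand), the partner without which the loop stops, stood at 22.6 TPM at sevoflurane 0 h, 17.6 at desflurane 0 h, 2.14 at desflurane 6 h and 0.426 at sevoflurane 6 h. The 0 h and 6 h livers did not overlap, and *Arntl* was 53.0 times lower at 6 h with sevoflurane and 8.23 times lower with desflurane. The value at sevoflurane 6 h rested on a mean coverage of 1.46 reads per base, against 53.3 in its control. *Npas2* (chr9:45901741-46081880, plus strand), which can stand in for CLOCK, stood at 1.44 TPM at sevoflurane 0 h, 1.33 at desflurane 0 h, 0.226 at desflurane 6 h and 0.140 at sevoflurane 6 h. Its order over the 4 livers was that of *Arntl*, but it was below a TPM of 2 in all of them and at a coverage of 0.479 and 0.823 in the 6 h livers, so it entered no call. *Clock* (chr14:34455934-34502218, plus strand) showed a smaller difference, with 8.73 TPM at sevoflurane 0 h, 8.83 at desflurane 0 h, 5.41 at desflurane 6 h and 3.80 at sevoflurane 6 h. The controls were nearly equal for *Clock*, which was 2.30 times lower at 6 h with sevoflurane and 1.63 times lower with desflurane.

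In the repressing limb the *Per* genes, whose proteins form the core of the repressor complex, were all higher in both 6 h livers. *Per3* (chr5:168088126-168123030, minus strand) stood at 0.207 TPM at sevoflurane 0 h, 0.355 at desflurane 0 h, 3.71 at desflurane 6 h and 11.8 at sevoflurane 6 h. It differed more than any other member with either agent on the ratio scale, 56.9-fold with sevoflurane and 10.5-fold with desflurane, from controls whose coverage was only 0.489 and 1.23 reads per base. *Per1* (chr10:55687124-55696020, plus strand), which also responds rapidly to signals from outside the clock, stood at 0.352 TPM at sevoflurane 0 h, 1.38 at desflurane 0 h, 9.95 at desflurane 6 h and 6.05 at sevoflurane 6 h. The ratio was 17.2 with sevoflurane and 7.22 with desflurane. In the sevoflurane control its coverage was 0.831. *Per2* (chr9:98555156-98597323, minus strand) differed least among them, with 1.24 TPM at sevoflurane 0 h, 1.51 at desflurane 0 h, 2.10 at desflurane 6 h and 2.89 at sevoflurane 6 h. Its 0 h and 6 h livers did not overlap, but the gap between the nearest of them, desflurane 0 h and desflurane 6 h, was 1.40-fold, and the ratio with sevoflurane was 2.34.

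The composition of *Per* message differed between the livers. *Per2* made up 68.9% and 46.5% of summed *Per* TPM in the sevoflurane and desflurane controls and 13.9% and 13.3% at 6 h. *Per3* took the largest share at sevoflurane 6 h, 56.9%, and *Per1* at desflurane 6 h, 63.1%. The pair of 6 h livers thus had like sums of *Per* message, 20.7 and 15.8 TPM, with the ranks of *Per1* and *Per3* exchanged.

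The *Cry* genes, which encode the strongest repressors of BMAL1 and CLOCK, differed in opposite directions. *Cry2* (chr3:81314151-81344109, minus strand) stood at 2.57 TPM at sevoflurane 0 h, 2.09 at desflurane 0 h, 7.94 at desflurane 6 h and 6.61 at sevoflurane 6 h. It was 2.58 times higher at 6 h with sevoflurane and 3.81 times higher with desflurane, and 0 h and 6 h livers did not overlap. *Cry1* (chr7:24534615-24634098, plus strand) stood at 4.99 TPM at sevoflurane 0 h, 2.28 at desflurane 0 h, 1.51 at desflurane 6 h and 3.31 at sevoflurane 6 h. It was the one member whose 0 h and 6 h livers overlapped: each agent's 6 h liver was 1.51 times lower than its control, and both sevoflurane livers lay above both desflurane livers. The ratio of *Cry2* to *Cry1* was 0.514 and 0.914 in the sevoflurane and desflurane controls and 2.0 and 5.26 at 6 h.

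Both REV-ERB genes were higher at 6 h. *Nr1d1* (chr10:86683875-86690815, minus strand), which encodes REV-ERB alpha, stood at 0.407 TPM at sevoflurane 0 h, 2.41 at desflurane 0 h, 7.95 at desflurane 6 h and 7.65 at sevoflurane 6 h. The 6 h livers were alike, while the desflurane control was 5.91 times above the sevoflurane control, so the ratio of 6 h to 0 h was 18.8 with sevoflurane and 3.30 with desflurane. The sevoflurane control rested on a coverage of 0.961 reads per base. Loci assembled from the reads over *Nr1d1* summed to 2.40 and 2.42 TPM in the sevoflurane and desflurane controls and to 7.65 and 7.90 TPM at 6 h. At sevoflurane 0 h this sum added 3 pieces at 1.01, 0.504 and 0.881 TPM, each scaled to its own length. Each piece lay below the 1 whole locus of the desflurane control, at 2.42 TPM. Such a sum grows with the number of pieces, so it does not show that the controls were alike. *Nr1d1* shares 1061 bp with *Thra* on the opposite strand, a thyroid hormone receptor gene at 1.45, 2.68, 2.58 and 2.07 TPM in the same order of livers, and the sources used here do not say whether strand was used in the quantification. *Nr1d2* (chr15:8730871-8757165, plus strand), which encodes REV-ERB beta, stood at 4.21 TPM at sevoflurane 0 h, 8.88 at desflurane 0 h, 24.5 at desflurane 6 h and 24.7 at sevoflurane 6 h. It was the most abundant member in both 6 h livers, 5.87 times higher with sevoflurane and 2.76 times higher with desflurane, and its controls also differed by 2.11-fold.

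**Figure D1:**
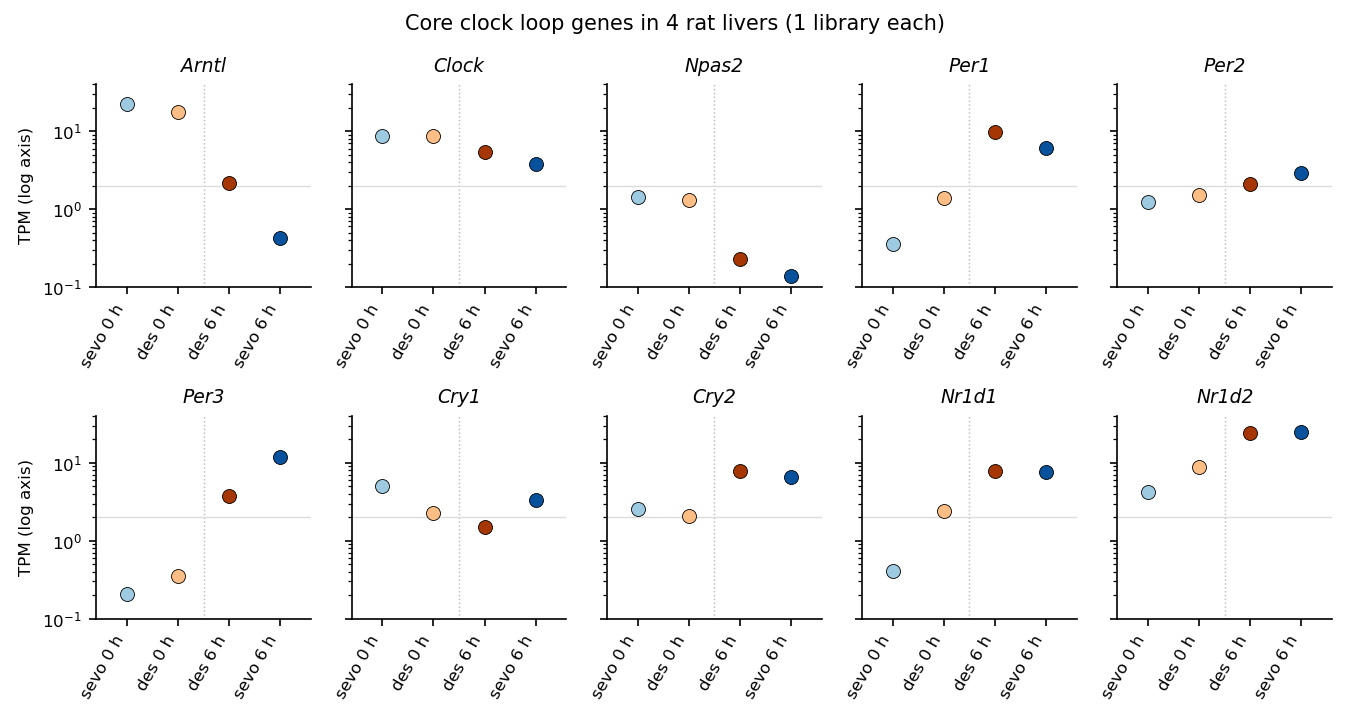
TPM of each core clock gene (log axis) in the 4 livers, 1 point per library, with the 0 h livers left of the dotted line and a grey line at a TPM of 2. All genes but *Cry1* have both 6 h livers outside the range of both 0 h livers, *Arntl*, *Clock* and *Npas2* below it and the other 6 above it.

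A member was called higher or lower if its larger TPM was above 2 and the ratio to the smaller was also above 2. A gene could pass this minimum through 1 liver alone, as the *Per* genes did through the 6 h livers. With sevoflurane, 8 of the 9 members above this minimum were called in either direction, against 8.75% of all 8270 genes above it. Of these, 6 were called higher (*Per1*, *Per2*, *Per3*, *Cry2*, *Nr1d1* and *Nr1d2*), against 5.04% of genes, and 2 were called lower (*Arntl* and *Clock*), against 3.71%. With desflurane, 6 of 9 were called, against 9.65% of 8372 genes: 5 were called higher, the same genes without *Per2*, against 4.1%, and *Arntl* alone was called lower, against 5.55%. Called in the same direction with both agents were *Per1*, *Per3*, *Cry2*, *Nr1d1* and *Nr1d2* as higher and *Arntl* as lower, where 2.54% and 1.5% of 8085 genes were. On the scale of log2(TPM + 1), which understates differences of genes with low values, the median size of the change over the 10 members was 1.70 (sevoflurane) and 1.38 (desflurane), while over the 9201 genes whose mean TPM reached 1 it was 0.24 and 0.25. All 10 members had the same sign with both agents, although *Cry1* and *Npas2* were called with neither. The share of all genes with the same sign was not counted, so this describes the members and sets them apart from no background. Complete separation of the 0 h from the 6 h livers was frequent in general, 50.7% of the 9201 genes showing it, and so the 8 of 9 members above that mean that did so are read against this share.

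**Figure D2:**
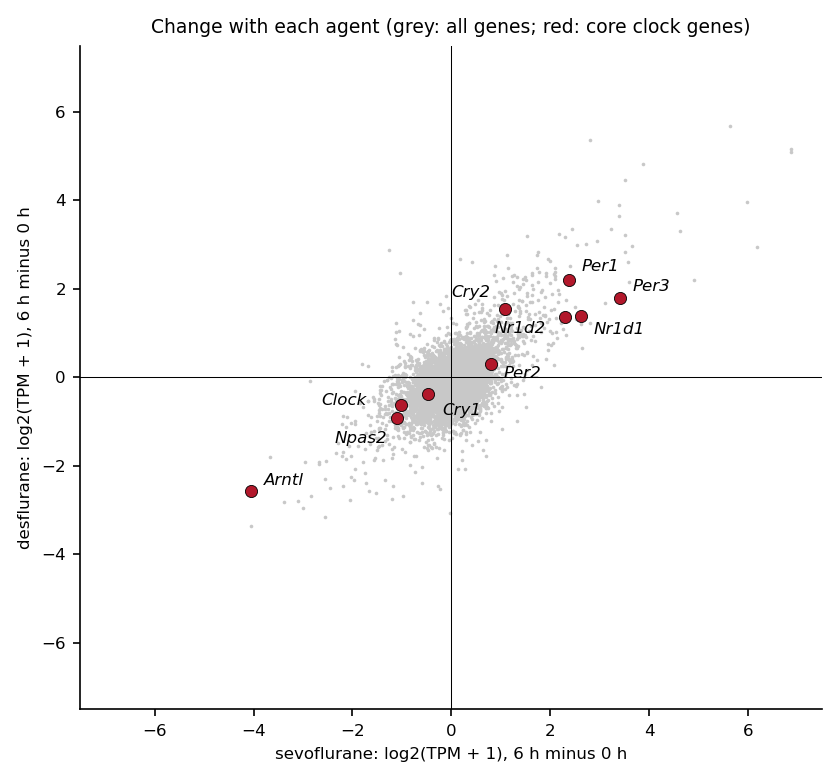
Change of log2(TPM + 1) from 0 h to 6 h with sevoflurane (x axis) and desflurane (y axis), 1 point per gene, grey for the 9201 genes whose mean TPM reached 1 and red for the 10 core clock genes. The red points lie in the lower left and upper right quadrants, from *Arntl* at -4.05 and -2.57 to *Per3* at 3.41 and 1.80.

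Summed over the limb, activating TPM (*Arntl*, *Clock* and *Npas2*) was 32.8 and 27.8 in the sevoflurane and desflurane controls and 4.36 and 7.77 at 6 h. The REV-ERB sum was higher at 6 h, with 4.61 and 11.3 at 0 h and 32.3 and 32.4 at 6 h, and so did the *Per* sum, with 1.80 and 3.24 at 0 h. The *Cry* sum was 7.56 and 4.37 TPM at 0 h and 9.93 and 9.45 TPM at 6 h, with *Cry1* lower and *Cry2* higher at 6 h. The total of all 10 members was 46.7 TPM in both controls and 67.4 and 65.4 TPM at 6 h. *Arntl* made up 69.0% and 63.4% of the activating sum in the controls but 9.77% and 27.5% at 6 h, when *Clock* was its main part.

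A ratio within a library is free of the scaling between libraries. *Nr1d1* stood below *Arntl* in both controls, by -5.79 on the log2 scale for sevoflurane and -2.87 for desflurane, and above it at 6 h, by 4.16 and 1.89. The ratio of *Per* and *Cry* message to the activating sum, on the log2 scale, was -1.81 and -1.87 in the controls and 2.81 and 1.70 at 6 h. With both measures the 6 h livers lay on the opposite side of 0 from the controls, with the sevoflurane liver farther out. With summed assembled loci in place of the named rows, the log2 ratio of the sevoflurane and desflurane controls was -3.33 and -2.95. It was 2.73 and 1.78 at 6 h. At sevoflurane 0 h the named row of *Nr1d1* was at 0.407 TPM. Its 3 assembled pieces, each scaled to its own shorter length, summed to 2.40 TPM. That sum grows with the number of pieces, so the nearness of the controls by this ratio does not show that they were alike.

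**Figure D3:**
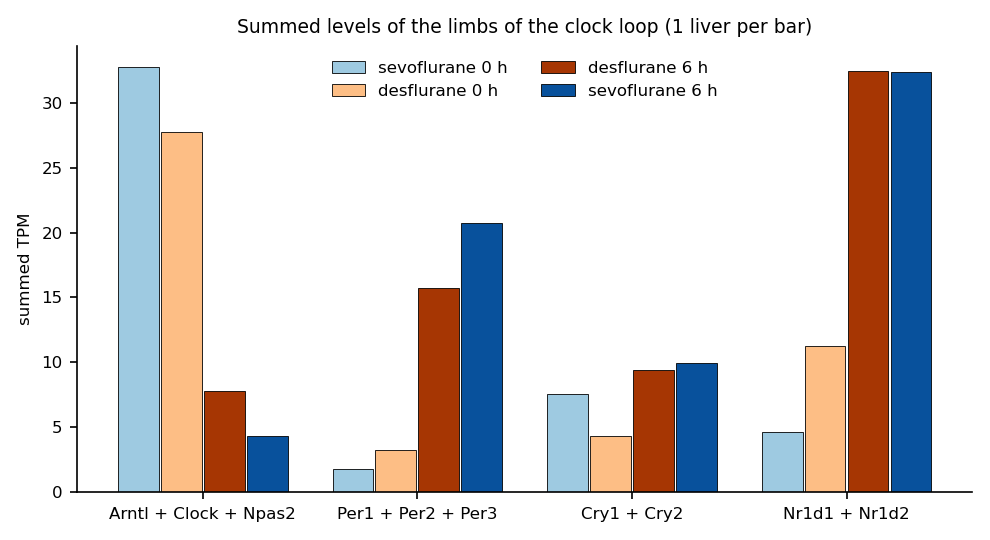
Summed TPM of the activating genes and of the *Per*, *Cry* and REV-ERB genes, with 1 bar per liver and no error bars since each bar is 1 library. The activating sum is 27.8 or more at 0 h and 7.77 or less at 6 h, and the REV-ERB sum is 11.3 or less at 0 h and 32.3 or more at 6 h.

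The 2 controls were each killed at loss of consciousness, and the comparison between them shows how far animals of 1 time group differed, each after a brief exposure to its own agent. *Nr1d1* and *Nr1d2* were called higher and *Cry1* lower in the desflurane control, 3 of the 6 members above the minimum, where 1.96% of 8263 genes were called higher and 0.799% lower. *Per1* was also 3.91 times higher there, both values being under a TPM of 2. *Clock* and *Npas2* differed by 0.01 and -0.07 on the log2(TPM + 1) scale. Over all genes the median of desflurane 0 h lay 0.11 above sevoflurane 0 h on this scale, and *Nr1d1* and *Nr1d2* lay 1.28 and 0.92 above. These calls depended on the scale: with libraries scaled by the median of ratios *Nr1d2* was no longer called, and with FPKM *Nr1d1* was not. Assembled loci over *Nr1d1* summed to 2.40 and 2.42 TPM in the sevoflurane and desflurane controls. The first sum adds 3 pieces and the second is 1 locus, so they cannot decide whether the controls differed. At 6 h *Arntl* was called higher, 5.02-fold, and *Per3* and *Cry1* lower, 3.18-fold and 2.20-fold, with desflurane than with sevoflurane. That was 3 of 9 members against 3.99% of 8229 genes, with 1 higher against 2.21% of genes and 2 lower against 1.77%. The call of *Arntl* was lost with FPKM, where both of its 6 h values were under the minimum of 2. *Nr1d1* and *Nr1d2* differed by 0.05 and -0.01 on the log2(TPM + 1) scale between these livers. *Cry1* was the member lower under desflurane at both times, by -0.87 at 0 h and -0.78 at 6 h.

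Ranked by *Arntl*, the livers ran from sevoflurane 0 h through desflurane 0 h and desflurane 6 h to sevoflurane 6 h. *Npas2* followed the same order, and *Per2*, *Per3* and *Nr1d2* followed its reverse. Among the 8 other members whose mean TPM reached 1 this was 3, against 12.8% of 9200 genes in the same or the reverse order. *Per1*, *Cry2* and *Nr1d1* were highest at desflurane 6 h instead, but for *Nr1d1* the margin over sevoflurane 6 h was 1.04-fold. With FPKM or the median of ratios *Nr1d2* left this order and *Clock* entered it. With assembled loci, summed over pieces whose number differed between livers, *Per3* and *Nr1d2* remained. The labels give 2 harvest times rather than 4, so this order is a ranking of animals by their values and not of known clock hours.

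Both agents were then fitted together in limma on log2(TPM + 1), over the same 9201 genes, to test the change they had in common. The agent entered as a blocking term, which left 1 residual degree of freedom. *Arntl* fell by 3.31 (SE 0.33, limma adjusted p = 2.995e-04), the one member called lower. *Per3* rose by 2.60 (SE 0.34, limma adjusted p = 1.61e-03), *Per1* by 2.29 (SE 0.23, limma adjusted p = 3.02e-04) and *Nr1d1* by 2.01 (SE 0.30, limma adjusted p = 3.67e-03). *Nr1d2* rose by 1.83 (SE 0.24, limma adjusted p = 1.63e-03) and *Cry2* by 1.31 (SE 0.24, limma adjusted p = 9.05e-03). These were 5 of 9 members higher and 1 lower, where 3.96% and 2.98% of all genes passed in the same directions. The filter is a mean over all 4 livers. *Per3*, at 0.207 and 0.355 TPM in the sevoflurane and desflurane controls, passed it through its 6 h values, as did *Per1*, at 0.352 and 1.38 TPM. *Npas2*, at 1.44 and 1.33 TPM in these controls, missed it through its low 6 h values. The filter thus shaped these counts, which describe the members and are no support for a direction. *Clock* (-0.82, limma adjusted p = 0.0654), *Per2* (0.55, limma adjusted p = 0.239) and *Cry1* (-0.43, limma adjusted p = 0.351) did not pass, and *Npas2* was below the filter. With all 13629 genes listed above 0 in the fit, limma called 25 genes and none of the 10 members, whose adjusted p then ran from 0.0731 upward, while 8 members had an unadjusted p under 0.05. The p-values compare 4 single animals, with hours of anesthesia and of the day changed together.

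**Figure D4:**
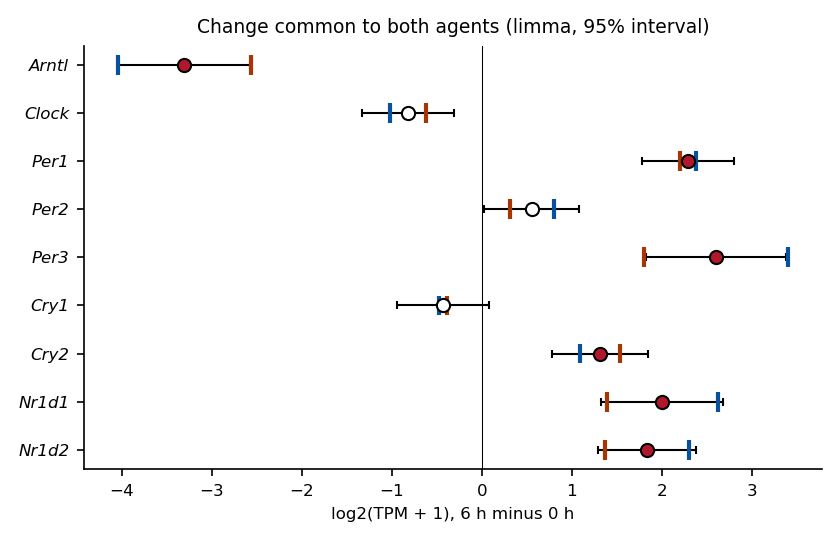
Change of log2(TPM + 1) from 0 h to 6 h common to both agents for the 9 members above the filter, with its 95% interval from limma, not adjusted for the number of genes. Filled circles passed an adjusted p of 0.05, and the short blue and brown ticks are the changes with sevoflurane and desflurane alone, which lie on the same side of 0 for every gene.

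The deposited data also list loci assembled from the reads of each liver without a gene name. Their first and last bases give the share of each gene that they span, introns included, and not the share covered by reads. *Arntl* was assembled as 1 locus over its whole length in both controls and at desflurane 6 h, and as 2 fragments over 12.9% of its span at sevoflurane 6 h. *Per3* had no assembled locus at sevoflurane 0 h, one or more over 27.3% of its span at desflurane 0 h, and loci over 100% and 98.4% of it at sevoflurane 6 h and desflurane 6 h. *Npas2* had loci over 85.9% of its span at sevoflurane 0 h and 1.19% at sevoflurane 6 h. At desflurane 0 h and 6 h they lay over 20.7% and 22.1% of it. *Nr1d1* was in 3 pieces over 72.6% of its span at sevoflurane 0 h and whole in the other livers. In all 4 livers the *Clock* locus began between 37663 and 38842 bp before the annotated 5′ end on rn6, and the 2 RefSeq starts of *Clock* lie 37795 bp apart on GRCr8. *Per1* began 5278 and 5247 bp before its annotated 5′ end in the sevoflurane and desflurane 6 h livers, 1607 bp before it at desflurane 0 h and inside the gene at sevoflurane 0 h. The row named *Per1* thus leaves out the part of this locus before its start. How much of that part held reads was not measured.

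Likeness to a member was measured as the root mean square distance between log2(TPM + 1) profiles centred over the 4 livers, among 8023 genes whose mean TPM reached 2. The gene nearest to *Nr1d1* was its paralog *Nr1d2*, at 0.153, where the median gene lay at 1.11, followed by *Polg2*, at 0.157, the accessory subunit of the mitochondrial DNA polymerase, and *Il6r*, at 0.187, the receptor of interleukin 6. *Per1* was the 14th nearest, *Cry2* the 172nd and *Arntl* the 8022nd. Nearest to *Arntl* were *Stac3*, at 0.316, *Gimd1*, at 0.392, and *Chka*, at 0.459, a choline kinase, with the median gene at 1.70. *Stac3* stood at 295 and 180 TPM in the sevoflurane and desflurane controls and at 22.3 and 50.8 TPM at 6 h. Nearest to *Per3* were *Rhbdd2*, at 0.273, *Cyp2b2*, at 0.366, a cytochrome P450 inducible by drugs, and *Eif4ebp3*, at 0.370, an inhibitor of translation initiation, with the median gene at 1.41. With 4 points these distances describe the livers and carry no test.

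Genes that act on the loop were examined as a list of 28, of which 25 were among the analysed symbols and 21 above the TPM minimum with either agent. With sevoflurane 5 of the 21 were called higher and none lower, where 5.04% and 3.71% of all genes were. With desflurane 8 of the 21 were called higher, the 5 among them, and none lower, where 4.1% and 5.55% of all genes were. *Ciart*, a repressor of BMAL1 and CLOCK, was listed at 0 at sevoflurane 0 h and stood at 0.241 TPM at desflurane 0 h, 17.5 at desflurane 6 h and 9.46 at sevoflurane 6 h. *Usp2*, a deubiquitinase that acts on clock proteins, rose from 0.536 and 0.943 TPM in the sevoflurane and desflurane controls to 13.4 and 18.7 TPM. *Noct*, the gene of nocturnin, rose from 0.625 and 1.66 TPM to 17.6 and 23.7 TPM. *Ppargc1a*, a coactivator that works with ROR receptors on *Arntl*, rose from 0.0255 and 0.412 TPM to 2.48 and 9.09 TPM, and *Nampt*, the rate-limiting enzyme of NAD salvage, from 21.7 and 21.3 TPM to 60.8 and 47.9 TPM. All 5 passed limma in the common change, with adjusted p between 3.06e-05 for *Ciart* and *Noct* and 1.19e-03 for *Nampt*. Of all genes, 3.96% passed as higher. Limma used the same values by which these 5 were picked, so their passing adds no support. *Bhlhe40*, *Csnk1e* and *Prkaa1* were called higher with desflurane alone, and the difference between agents was not tested. The median change of the 23 list members whose mean TPM reached 1 was 0.30 with either agent, against 0.05 and -0.10 for all genes with sevoflurane and desflurane.

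Among the kinases and ubiquitin ligases that act on PER and CRY proteins, the casein kinase gene *Csnk1e* stood at 5.42 and 3.31 TPM in the sevoflurane and desflurane controls and 5.82 and 8.89 TPM at 6 h. *Prkaa1*, a catalytic subunit of AMP-activated kinase, stood at 4.23 and 4.28 TPM and then 7.28 and 9.66 TPM. The others were called with neither agent: *Csnk1d* was at 12.6 and 15.4 TPM in the sevoflurane and desflurane controls and 15.7 and 24.2 TPM at 6 h, and *Btrc* between 2.09 and 2.54 TPM in all livers. Of the output factors that bind D-boxes, *Dbp* stood at 0.400 and 1.92 TPM in the controls and 87.9 and 44.8 TPM at 6 h, and *Tef* at 4.19 and 7.25 TPM and then 29.1 and 19.7 TPM. Both were called higher with each agent, while *Nfil3*, a repressor at the same sites, was called lower with sevoflurane only.

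**Figure D5:**
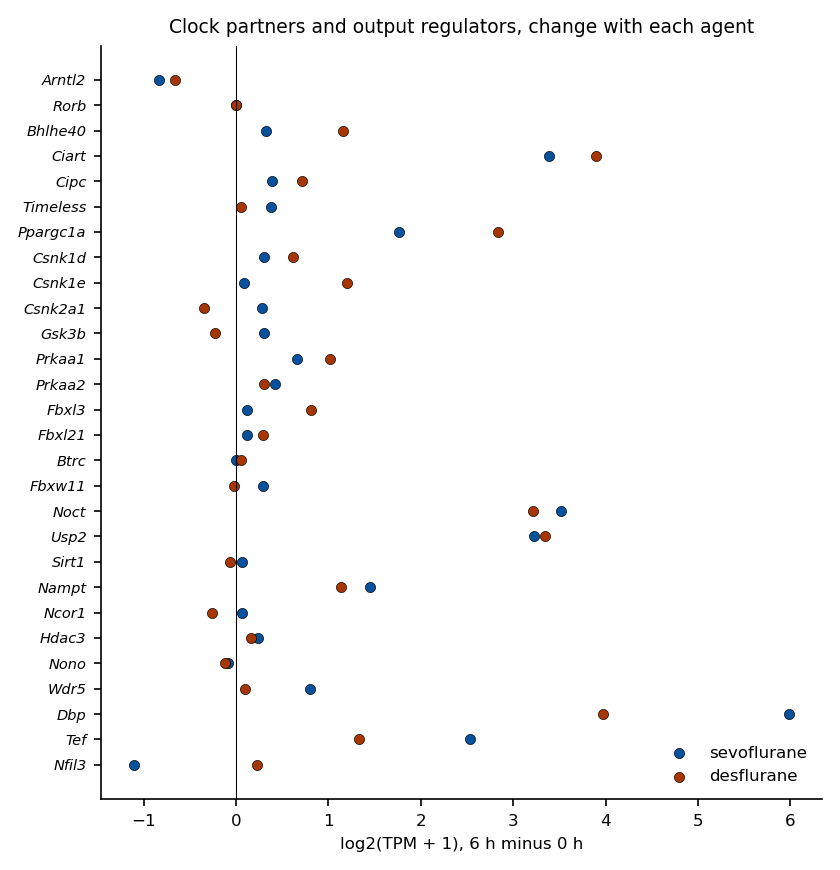
Change of log2(TPM + 1) from 0 h to 6 h for the 25 genes that act on the loop and the 3 output regulators among the analysed symbols, blue for sevoflurane and brown for desflurane, 1 liver per group. *Ciart*, *Noct*, *Usp2* and *Dbp* lie above 3 with both agents, and *Nfil3* is among several genes with opposite signs.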

How the data were processed

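Total RNA of 4 rat livers was sequenced from stranded libraries with ribosomal RNA removed. The submitters' processing notes name HISAT2, SAMtools, StringTie and the build rn6, without versions. The authors deposited a table per library with TPM, FPKM and coverage for named genes and assembled loci. The deposited TPM column was handled as a score, because the assembled loci alone already make up a full TPM total and the named genes come on top of it. The deposited FPKM is proportional to TPM within a library and served as an alternative. The deposited coverage, a signal in reads per base, gave the depth behind low values. These tables hold no counts, so depth limits low values without an interval.

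Libraries were grouped by title. Rows spanning up to 200 bp were dropped, and rows of a symbol summed. Differences within an agent, between controls and between 6 h livers used the rule of size (TPM above 2, ratio above 2) without a p-value. The common change used limma 3.58.1 in R 4.3.3 (eBayes with trend, two-sided, Benjamini-Hochberg over all tested genes). Its code was tried on simulated data with the same noise for every gene, which does not measure its error in these data. Every member is named in every library. Listed partners are named when called with both agents or in opposite directions, and the 3 nearest profiles of *Arntl*, *Nr1d1* and *Per3* are given. *Csnk1d*, *Btrc*, *Tef*, *Dbp* and *Nfil3*, and the partners called with desflurane alone, are named with their values known. The members and lists were chosen with earlier results of these data known. The related paper appears to describe a repeat of the experiment at a common hour, which was not analysed here. Some listed genes and a promoter window of *Cry1* are not reported here.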

Additional observations from a re-analysis of the deposited data

Results flagged for a closer look

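*Nfil3*, a repressor that binds D-boxes, was called lower with sevoflurane and not called with desflurane, and the difference was not tested. On the log2(TPM + 1) scale the 6 h liver differed from its control by -1.11 under sevoflurane and by 0.23 under desflurane. The signs were opposite, but the median size of change over the 9201 genes was 0.25 with desflurane. Its level was 17.7 and 15.2 TPM in the sevoflurane and desflurane controls, 7.66 TPM at sevoflurane 6 h and 18.0 TPM at desflurane 6 h.

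Loci assembled from the reads reached outside the annotated *Per1* gene, in data the comparisons did not use. At sevoflurane 6 h the locus extended 5278 bp before the 5′ end and at desflurane 6 h 5247 bp, whereas it reached 1607 bp at desflurane 0 h and began inside the gene at sevoflurane 0 h. *Per1* was also more abundant at 6 h, and the part of its level in the extent of assembly was not tested.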

How the results depend on the processing

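The count of called members moved by more than 1.5 times under these settings. A ratio above 3 in place of 2 left 5 of 8 calls with sevoflurane and 1 of 3 between the controls (*Nr1d1*). A TPM minimum of 5 left 1 of 3 between the controls (*Nr1d2*) and 1 of 3 between the 6 h livers (*Per3*). In the common change, limma called 2 of 3 tested members when the mean TPM had to reach 5, where fewer members were tested, and 0 of 10 with every gene above 0. With assembled loci in place of named rows, the log2 ratio of *Nr1d1* to *Arntl* at sevoflurane 0 h was -3.33 in place of -5.79, and 2 rather than 4 other members followed the order of *Arntl* or its reverse, the second being chosen after seeing the data. The assembled values are sums that grow with the number of pieces of a gene, which differed between livers. *Nr1d1* was in 3 pieces at sevoflurane 0 h and 1 in each other liver. *Npas2* was in 4 pieces at sevoflurane 0 h and 1 at sevoflurane 6 h. The part of this in the moves with assembled loci, and the cause of the other moves, were not tested.

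The agent block pairs each 6 h liver with the control of its agent, and without this block limma also called 6 members. No paired analysis was possible by replicate number because the labels carry none. Fits that leave out a library also drop the block, and the lone library of its time is assumed to vary like the others. They called 5 to 7 members. Without sevoflurane 0 h replicate 1, *Per3* had a limma adjusted p of 0.0623 (0.0140 with all 4 libraries and no block) and *Cry1* reversed to 0.0038 (limma adjusted p = 0.998, the other fits of this kind reaching -0.87). Without desflurane 6 h replicate 1, *Clock* passed (limma adjusted p = 0.0389, against 0.0649 with all 4 libraries and no block).

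The other counts stayed within 1.5 times, but single calls changed. *Per2* was lost with sevoflurane under FPKM, under a TPM minimum of 5 and against the desflurane control, and a ratio above 1.5 added *Clock* and *Cry1* with desflurane (8 in place of 6). A pseudocount of 0.1 enlarged all 40 log2 changes of members and turned none. Each member has 1 row per library, so taking the highest row could change nothing. Depth limits the values at low coverage, among them *Npas2* at 6 h, *Arntl* at sevoflurane 6 h and *Per1*, *Per3* and *Nr1d1* at sevoflurane 0 h.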
